A study of Homo sapiens with 6 samples.

Results

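Human chromosome 19 carries the densest collection of zinc finger genes in the genome, and the expression of those genes was described here in cultured neuroblastoma cells. Members were all protein-coding genes on chromosome 19 whose symbol is ZNF followed by a digit. The rule found 249 members among 60651 genes in each count table, which is 16.9% of the 1472 protein-coding genes of the chromosome. The same naming rule found 266 protein-coding genes on the other chromosomes, so that chromosome 19 held 48.35% of them. A further 49 chromosome 19 identifiers with such a symbol were not protein-coding and were left out.

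Total RNA was sequenced in 6 libraries, of which 3 are titled EtOH, for the ethanol vehicle, and 3 Tet, for tetracycline added over 5 days. The labels were at odds over the cell model. The titles named IMR575, a *MYCN*-amplified neuroblastoma line (IMR-5/75), and a tag spoke of a knockdown with the values Control for EtOH and Induction for Tet. The protocol text instead described SK-N-SH cells with a tetracycline-repressor system that switches on *MYCN*, kept as single clones under G418 and blasticidin, while the study's methods cover inducible *MYCN* expression in SK-N-AS and inducible *MYCN* knockdown by shRNA in IMR-5/75. Libraries were therefore grouped by title and by nothing else. No label tied the 3 libraries of a group to separate cultures by more than a number. The study's methods give 3 biological replicates as the default for its in vitro work, without naming these libraries. The tests thus measure the spread between these libraries, which may be technical.

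Most zinc finger genes of this family encode proteins with a tandem array of C2H2 fingers, short loops held by a zinc ion that read DNA bases, and many start with a KRAB box. The KRAB box recruits TRIM28 (KAP1), which brings the histone H3 lysine 9 methyltransferase SETDB1 and heterochromatin protein 1, so that the bound DNA is silenced. Many members bind retroelements, and they lie in clusters that grew by repeated duplication of neighbouring genes. MYCN, the transcription factor that the labels say was manipulated, binds the E-box CACGTG.

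The 6 libraries held 27933378 to 40498065 counts in genes, so that 3 counts stood for 0.0741 to 0.107 CPM, the count scaled to the library total, and 0.645% to 0.748% of the counts fell on the members. *MYCN* did not follow either reading of the labels, at 157.9, 256.3 and 155.9 CPM with EtOH and 196.6, 200.1 and 145.4 CPM with Tet (log2 fold change -0.07, adjusted p = 0.956). Libraries of one group stood apart from each other. On the first principal component, with 44.73% of the variance, EtOH replicate 2 lay at 84.22, Tet replicate 2 at 47.33 and the other 4 between -55.03 and -1.81. The groups separated on the second component (25.7%). Results that rest on EtOH replicate 2 are given with and without it. Of 12 adrenergic neuroblastoma markers, 9 reached 1 CPM on average (*DBH*, *GATA2* and *TH* did not), and their sum was 637.1 to 725.0 CPM with EtOH and 754.4 to 906.3 CPM with Tet. The 5 blood cell markers summed to 0.503 to 1.2 CPM with *CD3E* and *HBB* at 0, and 3 of 6 fibroblast markers, 6 of 8 mesenchymal-state markers and 1 of 4 Schwann cell markers reached 1 CPM. The part of these markers in the results was not tested.

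Of the 249 members, 187 had enough counts for a test (about 0.316 CPM in 3 libraries) and 62 did not. Levels per length are given as TPM, the count divided by the gene's exon length and scaled to the same total in each library. The tested members had a median of 7.235 TPM, beside 6.102 TPM for all tested genes and 11.15 TPM for the tested zinc finger genes of other chromosomes. Among the tested members 79 reached 10 TPM and 31 were under 1 TPM, whereas no untested member exceeded 0.28 TPM, and 47 of the 62 untested members averaged under 0.1 CPM. *ZNF257*, *ZNF676*, *ZNF728*, *ZNF541*, *ZNF835* and *ZNF418* had no count in any of the 6 libraries, which at this depth allows up to 0.0741 to 0.107 CPM in one library. The summed level of all members was 3054 ± 444 TPM with EtOH and 3247 ± 177 TPM with Tet (SD, n = 3 each), and the groups overlapped.

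The members with the highest levels per length were *ZNF146*, *ZNF121*, *ZNF91*, *ZNF708* and *ZNF260*, and the 10 highest held 42.0% of the members' summed TPM. *ZNF146* (OZF), whose protein consists almost wholly of fingers, had 347.6 ± 56.1 TPM (SD, n = 6) and alone held 11.03% of the sum. *ZNF121* had 179.0 ± 21.6 TPM and *ZNF91*, a repressor of SVA retroelements, 177.0 ± 27.9 TPM, so that *ZNF121* and *ZNF91* did not differ beyond their spread. *ZNF708* and *ZNF260* followed at 142.9 ± 32.3 TPM and 138.4 ± 30.8 TPM and did not differ beyond their spread either. *ZNF93*, a repressor of L1 elements that is related to *ZNF91*, was close to silent at 0.108 TPM.

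Ordered by position (GRCh38), the members ran from *ZNF554*, which starts at base 2819868 of chromosome 19, to *ZNF446*, which ends at base 58481230. With a cluster defined as at least 5 members whose consecutive starts lie under 1 Mb apart, 238 of the 249 members fell into 9 clusters and 11 stood alone or in smaller runs. Within a cluster the median distance between neighbouring starts was 39969 bases, and 134 members lay on the plus strand and 115 on the minus strand.

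Clusters differed in how many members had enough counts for a test. All 26 members of cluster 6 (first and last start 36182276 and 37735833) and all 5 of cluster 5 (34677639 and 34956354) were tested, as were 24 of 26 in cluster 3 (11483427 and 12610918). By contrast, 17 of the 37 members of cluster 4 (19668796 and 24033405) and 16 of the 40 members of cluster 8 (51571283 and 53519527) were too low to test. Cluster 4 also had the highest median level among its tested members, 29.01 TPM. Abundant genes and genes too low to test thus lay side by side in it. Cluster 9, the largest with 59 members and the one nearest to the end of the long arm (55476617 and 58474017), had 47 tested members at a median of 3.176 TPM.

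**Figure D1:**
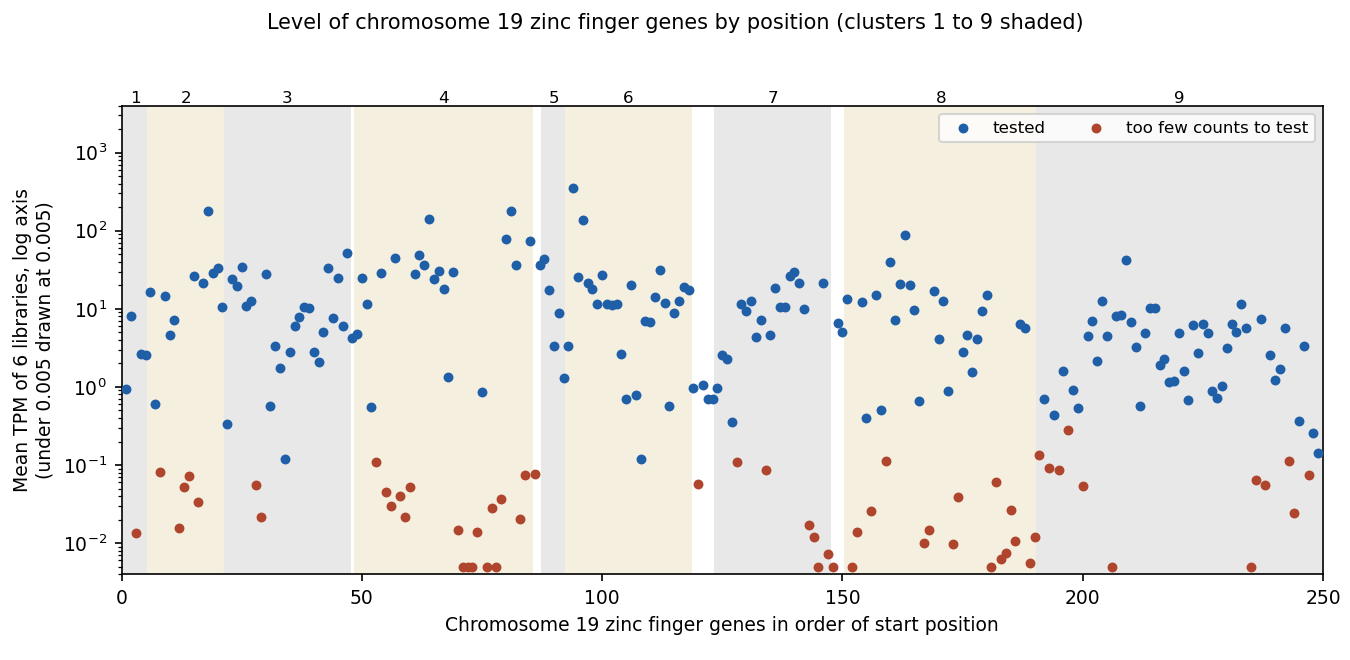
Mean TPM of the 6 libraries (vertical log axis) for the 249 members in order of start position (horizontal axis), with clusters 1 to 9 shaded; blue points are the 187 tested members and red points the 62 with too few counts, which reach no higher than 0.28 TPM. Red points gather in clusters 4 and 8, which hold 17 and 16 of them, and cluster 6 has none.

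Members too low to test formed runs. The longest was *ZNF415*, *ZNF347*, *ZNF665*, *ZNF677*, *ZNF845* and *ZNF525* in cluster 8 (bases 53107879 to 53392217). In cluster 4, *ZNF208*, which encodes 36 finger matches, the most of any member, was followed by *ZNF257*, *ZNF676*, *ZNF729* and *ZNF98* (21932958 to 22532485), and *ZNF99*, *ZNF723*, *ZNF728* and *ZNF730* formed a run of 4 (22752183 to 23147221) that *ZNF724* and *ZNF91* follow. *ZNF91* then had 500.2, 679.6 and 585.8 CPM with EtOH and 724.1, 744.5 and 791.2 CPM with Tet, while the genes of that run averaged 0 to 0.0408 CPM. Of 229 adjacent pairs within clusters, 61 had 1 tested and 1 untested member. Adjacent tested members had a median difference of 1.4 in log2 TPM over 141 pairs, against 2.09 over all 17391 pairs of tested members. Adjacent members are paralogs that can share reads, and 96 members shared at least 5% of their exon bases with another gene.

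The level of the members went with the GC content of their transcripts, as it did for other genes, but rose less than theirs under 40% GC. The 75 members under 40% GC had a median of 7.53 TPM and the 111 with 40% to 45% had 6.19 TPM. The 30 with 45% to 50% had 3.29 TPM and the 27 with 55% or more had 0.28 TPM. Over all protein-coding genes the medians in the same bands were 21.7, 10.2, 3.62 and 0.225 TPM. *TRIM28*, the KRAB corepressor, has 64.24% GC in its transcript and was listed at 1.255, 2.308 and 0.992 CPM with EtOH and 0.815, 1.326 and 3.322 CPM with Tet. Levels of members with high GC were thus measured in the same range in which GC-rich genes of every kind were low, and the part of GC in these levels was not tested.

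Between Tet and EtOH, no member passed the edgeR quasi-likelihood test with Benjamini-Hochberg adjustment over all genes. At an adjusted p under 0.05, 0 of 187 tested members were higher with Tet and 0 were lower, where 0.147% of the 22443 tested genes were higher and 0.0891% lower. The lowest adjusted p of a member was 0.0805. At an unadjusted p under 0.05, 25 members (13.4%) were higher and 0 lower, where 5.83% of all tested genes were higher and 4.94% lower. All 3 Tet libraries lay above all 3 EtOH libraries in 35 members (18.7%), against 9.2% of all tested genes, and all below in 6 members (3.21%), against 8.28% of all tested genes. These 6 were *ZNF121*, *ZNF507*, *ZNF565*, *ZNF585A*, *ZNF574* and *ZNF114*. The 215 tested zinc finger genes of other chromosomes also leaned to higher values, with 17 higher and 4 lower at an unadjusted p under 0.05. Every Tet library lay above every EtOH library in 27 of those 215 and below in 12. In 5 members the count minimum was reached in every Tet library but not in every EtOH library, and 3 of these, *ZNF358*, *ZNF763* and *ZNF547*, are among the 25. Among the 173 members with a mean of at least 1 CPM, 22 were higher at an unadjusted p under 0.05, against 6.39% of all genes at that level, and 32 had every Tet library above, against 9.73%. At an adjusted p under 0.05, DESeq2 called 4 of the 243 members with any count higher (*ZNF528*, *ZNF606*, *ZNF790* and *ZNF880*). It called 0.717% of the 40467 genes with any count higher. Both totals include genes that its own filter on low counts can leave without an adjusted p. At the same threshold limma-voom called 0 members, where it called 0.165% of all tested genes higher. In bulk cultures, more cells that transcribe a gene and more RNA per cell cannot be told apart.

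The count of calls turned on EtOH replicate 2. Without that library 10 of 189 tested members were higher at an adjusted p under 0.05 and 0 were lower. Of all 23935 tested genes, 361 (1.51%) were higher and 331 lower. The 10 were *ZNF136*, *ZNF429*, *ZNF443*, *ZNF480*, *ZNF528*, *ZNF606*, *ZNF675*, *ZNF682*, *ZNF790* and *ZNF880*. Leaving out any of the other 5 libraries gave 0 calls among the members in either direction. In these fits 0 or 1 of all tested genes were called in each direction, so 0 members is the background. The count of members higher at an unadjusted p under 0.05, 25 with all libraries, became 47 without EtOH replicate 2, where 10.7% of all tested genes were higher. It was 12 without EtOH replicate 1 (4.0% of all tested genes), 16 without EtOH replicate 3 (3.26%), 16 without Tet replicate 1 (4.51%) and 12 without Tet replicate 3 (4.58%). Members lower at that p numbered 4 without EtOH replicate 2 (*ZNF235*, *ZNF473*, *ZNF571* and *ZNF576*; 9.87% of all tested genes) and 1 without Tet replicate 3 (*ZNF546*; 4.43%). With 1 library fewer, groups separate more readily in all genes. Every Tet library lay above every EtOH library in 70 members without EtOH replicate 2, against 19.9% of all tested genes, and in 66 without Tet replicate 2, against 13.9%. Every Tet library lay below in 10 members without EtOH replicate 1 (11.6% of all tested genes), 20 without EtOH replicate 2 (21.1%), 10 without EtOH replicate 3 (10.6%), 15 without Tet replicate 1 (11.7%) and 12 without Tet replicate 3 (12.9%).

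Over the 187 tested members the median log2 fold change of Tet over EtOH was 0.13, with quartiles of -0.09 and 0.35 and a range from -0.64 to 2.23, and 121 (64.7%) were positive. The median was -0.01 over all tested genes, 0.03 over the zinc finger genes of other chromosomes and 0.25 over the other protein-coding genes of chromosome 19. After each library's trend with transcript GC was removed, the members' median was 0.125 and that of the other chromosome 19 genes 0.0394. The members' median stayed positive when each library was left out in turn, between 0.063 without Tet replicate 3 and 0.211 without Tet replicate 2. By library, the median deviation of the members from their own mean log2 CPM was -0.07, -0.12 and -0.03 with EtOH and 0.14, -0.06 and 0.19 with Tet, so that Tet replicate 2 lay among the EtOH libraries. In the other chromosome 19 genes the difference came largely from Tet replicate 3, which deviated by 0.80 while Tet replicates 1 and 2 lay at -0.20 and -0.19.

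Along the chromosome the cluster medians ran from -0.07 to 0.34, as a description without a test. Cluster 3 had the highest median log2 fold change, 0.34, with 20 of 24 tested members positive and 5 at an unadjusted p under 0.05 (*ZNF441*, *ZNF763*, *ZNF44*, *ZNF443* and *ZNF564*). Cluster 8 followed with 0.30, 18 of 24 positive and 8 at that p, and cluster 9 with 0.25, 36 of 47 positive and 5 at that p (*ZNF543*, *ZNF547*, *ZNF17*, *ZNF134* and *ZNF606*). Members listed here for their p were picked after their values were seen. Of them, *ZNF763* and *ZNF547* reached the count minimum in every Tet library but not in every EtOH library, and the counts by cluster include them. These 3 clusters held 18 of the 25 members at an unadjusted p under 0.05 and 95 of the 187 tested members. Cluster 6 centred on 0.01 with 13 of 26 positive, and cluster 7 on -0.07 with 8 of 18 positive and 0 at that p. Over all alternatives, the medians of clusters 3, 8 and 9 stayed within 0.262 to 0.408, 0.169 to 0.359 and 0.136 to 0.297. The sign of others depended on single libraries. Cluster 7 stood at 0.0498 with 12 of 18 positive without Tet replicate 2 and at -0.22 without Tet replicate 3, and cluster 1 ran from -0.291 without EtOH replicate 2 to 0.231 without EtOH replicate 1. Clusters 2 and 6 ran from -0.0401 to 0.0861 and from -0.0318 to 0.0801, and cluster 5 stayed within 0.0974 to 0.212.

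Cluster 4, which holds *ZNF91*, depended on single libraries. Its median of 0.23 became 0.478 without EtOH replicate 2 and 0.030 without EtOH replicate 1, since these libraries deviated by 0.29 and -0.44 from the mean. The tested members of cluster 4 had a median transcript GC of 36.76%. After each library's trend with transcript GC was removed, these 2 deviations were 0.028 and -0.26 and the cluster median was 0.22. The part of GC in this cluster was not tested. The 8 tested members in no cluster had negative values without exception, with a median of -0.29 and a range of -0.158 to -0.401 for that median over the alternatives, and none had an unadjusted p under 0.05. Among them were *ZNF507*, at 157.2, 158.2 and 165.5 CPM with EtOH and 149.6, 141.5 and 131.0 CPM with Tet, and *ZNF473*, a factor of histone pre-mRNA processing. Adjacent tested members differed by a median of 0.256 in log2 fold change, against 0.326 over all pairs.

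**Figure D2:**
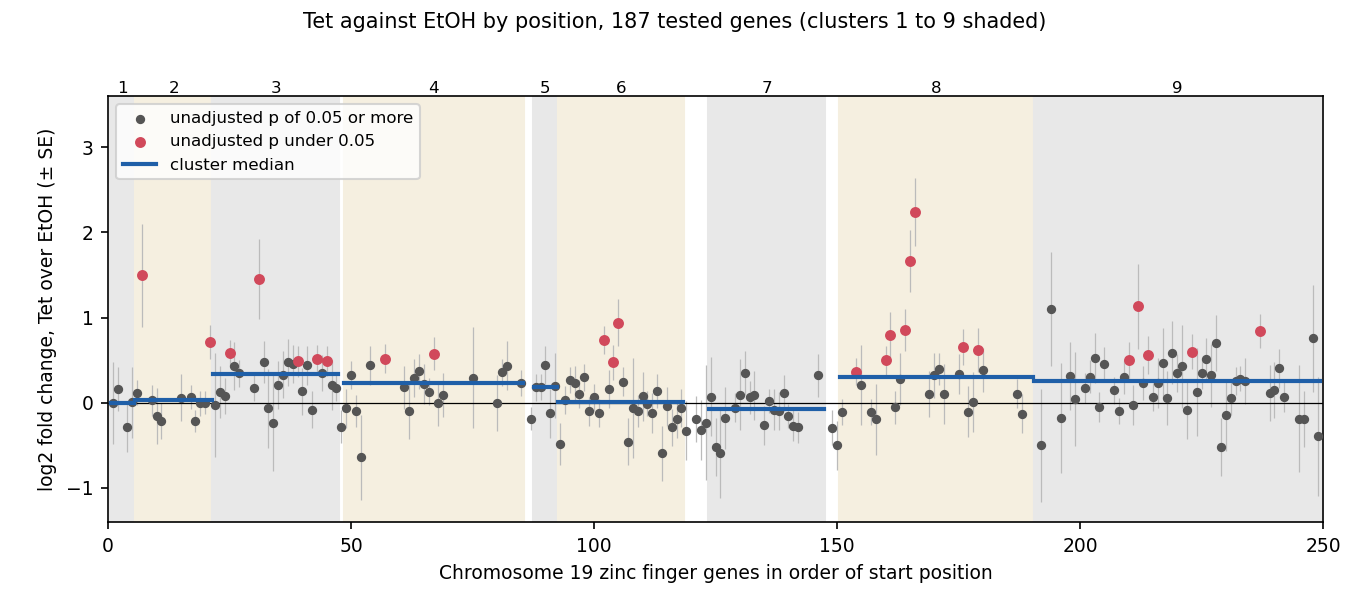
Log2 fold change of Tet over EtOH (vertical axis, bars ± SE of the edgeR fit) for the 187 tested members in order of start position (horizontal axis), with clusters 1 to 9 shaded and each cluster's median as a blue line. The 25 members at an unadjusted p under 0.05, in red, are all positive, and the medians run from -0.07 in cluster 7 to 0.34 in cluster 3.

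The 2 highest log2 fold changes, those of *ZNF528* and *ZNF880*, lay side by side in cluster 8. *ZNF610*, *ZNF880* and *ZNF528* follow each other on the plus strand over 82170 bases (52336243 to 52418412) and were the sole run of 3 or more adjacent members with every Tet library above every EtOH library. None of the 3 shares exon bases with another gene. *ZNF528* had 0.586, 0.469 and 1.157 CPM with EtOH and 3.049, 3.215 and 4.178 CPM with Tet, a fitted fold of 4.71 (log2 fold change 2.23 ± 0.40 SE, adjusted p = 0.0805). *ZNF880* had 7.421, 3.823 and 8.166 CPM with EtOH and 22.51, 12.52 and 26.7 CPM with Tet, a fitted fold of 3.17 (1.67 ± 0.36, adjusted p = 0.128). The lowest Tet library of *ZNF880* was still above its highest EtOH library.

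*ZNF610*, which the naming rule did not pick and which is given here as their neighbour after its values were seen, had 20.92, 14.79 and 22.02 CPM with EtOH and 38.43, 24.26 and 41.57 CPM with Tet, a fitted fold of 1.81 (adjusted p = 0.25). *ZNF528-AS1*, a noncoding gene on the minus strand whose own start lies 66 bases before that of *ZNF528*, had 0.837, 0.649 and 0.463 CPM with EtOH and 1.56, 1.862 and 2.919 CPM with Tet (log2 fold change 1.70, adjusted p = 0.158). Reads were counted without regard to strand, so transcription from one start that runs into the other gene cannot be told apart from that gene's own. On either side of the run the groups overlapped. *ZNF480*, the member just before *ZNF610*, had 93.85, 218.8 and 106.8 CPM with EtOH and 157.2, 190.5 and 161.8 CPM with Tet (log2 fold change 0.28), and *ZNF534*, just after *ZNF528*, had 0 to 0.035 CPM. Without EtOH replicate 2, *ZNF528* (log2 fold change 2.01, adjusted p = 0.0284), *ZNF880* (1.41, 0.0434) and *ZNF480* (0.77, 0.0296) passed the test.

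The promoters of *ZNF528*, *ZNF880* and *ZNF534* are shown because these neighbours are close in sequence while their levels and differences were not alike. Each runs from 250 bases before to 50 bases after the start (RefSeq, GRCh38.p14, plus strand), at chr19:52397599-52397898, chr19:52369673-52369972 and chr19:52428898-52429197. Capitals mark stretches of 8 or more bases shared with *ZNF880* in the first sequence and with *ZNF528* in the others.
ZNF528: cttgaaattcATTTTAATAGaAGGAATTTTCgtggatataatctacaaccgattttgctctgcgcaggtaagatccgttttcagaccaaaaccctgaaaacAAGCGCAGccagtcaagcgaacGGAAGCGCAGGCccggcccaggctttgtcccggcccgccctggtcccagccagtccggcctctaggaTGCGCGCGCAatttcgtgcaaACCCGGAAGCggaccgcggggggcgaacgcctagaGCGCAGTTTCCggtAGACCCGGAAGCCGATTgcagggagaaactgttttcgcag
ZNF880: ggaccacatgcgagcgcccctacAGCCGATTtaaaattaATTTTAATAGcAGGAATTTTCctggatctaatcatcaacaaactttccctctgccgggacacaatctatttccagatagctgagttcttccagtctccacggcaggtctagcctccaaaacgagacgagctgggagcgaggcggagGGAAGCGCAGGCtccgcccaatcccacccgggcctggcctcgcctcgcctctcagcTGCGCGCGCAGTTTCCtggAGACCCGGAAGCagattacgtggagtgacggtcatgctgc
ZNF534: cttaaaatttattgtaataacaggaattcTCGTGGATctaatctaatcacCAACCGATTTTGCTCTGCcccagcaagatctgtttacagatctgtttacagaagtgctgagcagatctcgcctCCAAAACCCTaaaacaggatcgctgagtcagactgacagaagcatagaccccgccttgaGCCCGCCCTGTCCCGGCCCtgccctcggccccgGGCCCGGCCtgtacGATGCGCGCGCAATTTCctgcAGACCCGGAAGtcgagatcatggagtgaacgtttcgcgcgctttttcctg

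Shared stretches covered 88 bases of the *ZNF528* promoter in the comparison with *ZNF880* and 100 bases in the comparison with *ZNF534*, the second and first of 217 other member promoters, over which the median was 16 bases. The longest exact stretch in common with *ZNF528* was 12 bases for *ZNF880* and 18 bases for *ZNF534*, and longer runs of capitals join overlapping stretches. The near-silent *ZNF534* thus shared more of its letters with *ZNF528* than *ZNF880* did. The E-box CACGTG, which reads the same on both strands, was in none of the 3 windows. It was found in 9 of the 218 member promoters in the RefSeq table (4.128%), against 7.256% of all promoters of the same length. The member promoters had a median of 20 CG dinucleotides, against 14 over all promoters, and the 3 shown have 27, 20 and 20.

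The other members with the lowest unadjusted p among the higher ones were *ZNF790*, *ZNF606*, *ZNF441* and *ZNF846*. *ZNF790* in cluster 6 had 12.11, 11.83 and 11.47 CPM with EtOH and 20.35, 19.18 and 19.45 CPM with Tet (log2 fold change 0.74 ± 0.16 SE, adjusted p = 0.137). Its spread between libraries of a group, 0.042 on the log2 scale, was among the smallest of the members with at least 5 CPM. *ZNF606* in cluster 9 had 13.22, 18.9 and 13.29 CPM with EtOH and 27.86, 25.36 and 28.11 CPM with Tet (0.84 ± 0.20, adjusted p = 0.151).

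*ZNF441* in cluster 3 had 48.04, 45.52 and 52.53 CPM with EtOH and 74.51, 63.29 and 81.29 CPM with Tet (log2 fold change 0.58, adjusted p = 0.204), and *ZNF846*, the last member of cluster 2, had 11.94, 10.42 and 12.5 against 19.28, 15.91 and 21.95 CPM (0.71, adjusted p = 0.214). In all 6 of the higher members named so far by the rule the groups did not overlap. They lay in clusters 2, 3, 6, 8 and 9.

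Lower values were smaller in size. *ZNF121* was second in mean TPM and did not differ from *ZNF91* beyond their spread. It had 498.3, 504.6 and 526.1 CPM with EtOH and 437.5, 447.6 and 436.0 CPM with Tet, groups that did not overlap (log2 fold change -0.21 ± 0.13 SE, adjusted p = 0.633). Its spread of 0.032 was the smallest of the members with at least 5 CPM. *ZNF565* had 5.58, 4.797 and 5.488 CPM with EtOH and 4.573, 3.61 and 3.196 CPM with Tet (-0.48, adjusted p = 0.543), and *ZNF585A* had 4.408, 3.354 and 3.041 against 2.623, 2.313 and 2.944 CPM (-0.46, adjusted p = 0.618). *ZNF565* overlaps *ZNF146* on the opposite strand and shares 12.28% of its exon bases, so their reads cannot be told apart there. The groups overlapped in *ZNF793* (log2 fold change -0.59), *ZNF473* (-0.50) and *ZNF233* (-0.29), with adjusted p of 0.578, 0.6 and 0.649.

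**Figure D3:**
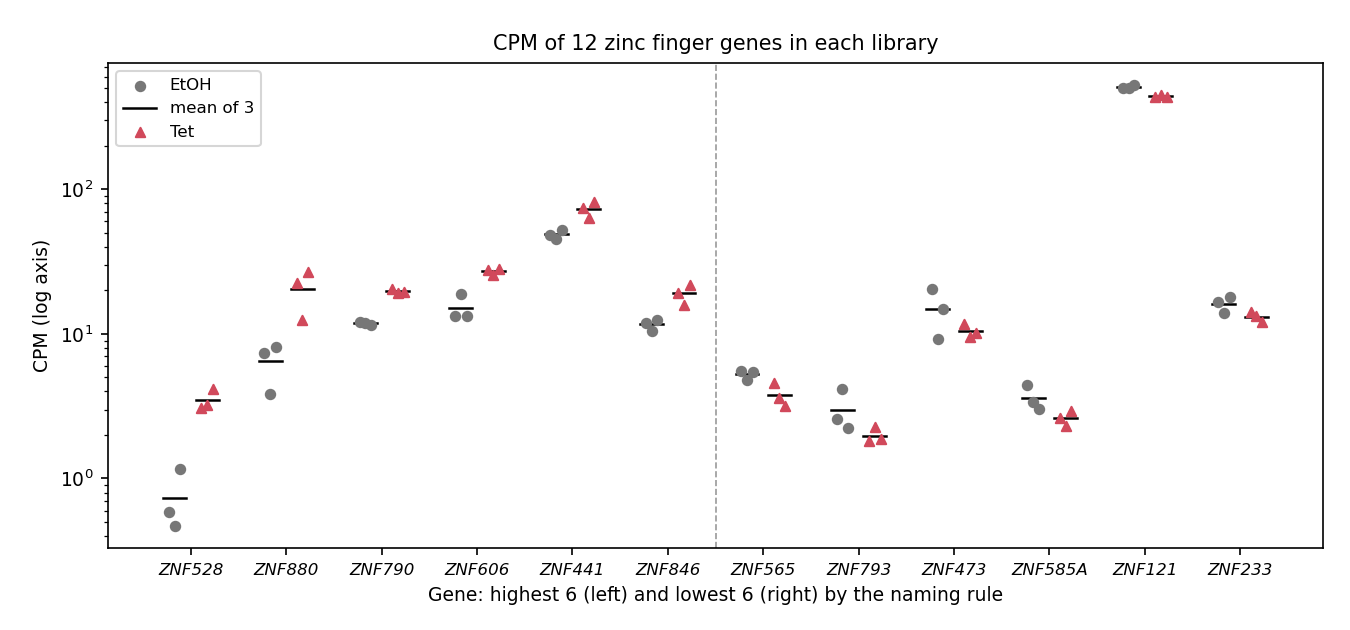
CPM (vertical log axis) of the 6 higher and 6 lower members picked by the naming rule, with 3 EtOH libraries as grey circles, 3 Tet libraries as red triangles and the mean of each as a bar. The groups do not overlap in any of the 6 genes on the left, from *ZNF528* to *ZNF846*, and on the right they do not overlap in *ZNF565*, *ZNF585A* and *ZNF121*.

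Members with a known role were described apart. Of the repressors of retroelements, *ZNF91* had a log2 fold change of 0.36 ± 0.16 SE with groups that did not overlap (adjusted p = 0.476). The paralogs *ZNF587* and *ZNF417*, which bind endogenous retroviruses, had 0.28 and 0.25 (adjusted p = 0.56 and 0.817), and *ZNF808*, a repressor of MER11 elements needed for pancreas development, had 0.10 (adjusted p = 0.946). *ZNF649*, a binder of L1 elements, and *ZNF93* were too low to test. *ZNF274*, which brings SETDB1 to the 3′ ends of zinc finger genes, had 4.799, 2.2 and 3.901 CPM with EtOH and 3.899, 3.328 and 4.882 CPM with Tet, and the groups overlapped (log2 fold change 0.15, adjusted p = 0.933).

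*ZNF568*, whose mouse counterpart silences a placental *Igf2* transcript, had 1.786, 1.371 and 1.917 CPM with EtOH and 3.403, 3.018 and 3.322 CPM with Tet (log2 fold change 0.94 ± 0.28 SE, adjusted p = 0.253). *ZNF382*, *ZNF420* (Apak, a regulator of p53) and *ZNF224*, a partner of WT1, had log2 fold changes of 0.30, 0.25 and 0.02, with overlapping groups and adjusted p of 0.559, 0.679 and 0.985. The imprinted *ZNF331*, at 0 to 0.106 CPM, and the neural *ZNF536*, at 0.071 to 0.378 CPM, were too low to test.

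The proteins with which KRAB zinc fingers act centred near 0. Of 42 genes of this corepressor system 41 were tested, with a median log2 fold change of 0.01 and 21 positive. None passed at an adjusted p under 0.05, against the background of 0.147% higher and 0.0891% lower given above, and at an unadjusted p under 0.05 *DNMT3A*, *ATRX*, *TRIM24*, *ATF7IP* and *EHMT2* (5) were higher and *DNMT3B* (1) lower, against 5.83% and 4.94% of all tested genes. *EHMT2* was at 6.644 CPM in Tet replicate 3 and at 0.67 to 1.636 CPM in the other 5 libraries. *SETDB1* had 127.5, 45.73 and 107.4 CPM with EtOH and 84.33, 66.03 and 89.04 CPM with Tet (adjusted p = 0.88). *ATF7IP*, its stabilising partner, had 306.6, 320.6 and 317.8 CPM with EtOH and 382.6, 435.9 and 386.2 CPM with Tet, groups that did not overlap (log2 fold change 0.35, adjusted p = 0.401). *TASOR*, *MPHOSPH8* and *PPHLN1*, the subunits of the HUSH silencing complex, had log2 fold changes of -0.14, 0.11 and 0.13, *MORC2*, which acts with HUSH, 0.23 and *TRIM28* 0.28, with adjusted p between 0.694 and 0.922. A further 21 zinc finger genes of chromosome 19 have names of other kinds, and the 10 tested had a median of 0.02 and no call.

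The libraries of a group differed from each other by more than sampling noise, and the members had a smaller median spread than the other genes of the chromosome. The spread of a gene was taken as the SD between libraries of a group on the log2 CPM scale, averaged over the groups as variances. Its median over the tested members was 0.276, against 0.387 over all tested genes, 0.279 over the zinc finger genes of other chromosomes and 0.658 over the other protein-coding genes of chromosome 19. Part of this went with level. Above 20 CPM the medians were 0.197, 0.227, 0.198 and 0.332 in the same order, and from 1 to 5 CPM they were 0.417, 0.449, 0.458 and 0.663. Without EtOH replicate 2 the members' median was 0.181.

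Spread went with transcript GC among the members as well. The 21 tested members with at least 50% GC had a median spread of 0.676, against 0.246 for the 166 with less. Their median levels also differed, at 1.226 and 17.82 CPM, and spread was larger at low levels. The parts of GC and of level in this difference were not told apart. In those 21 the median deviation was 0.48 in EtOH replicate 1, -0.69 in EtOH replicate 2 and 0.55 in Tet replicate 3. The remaining 3 libraries lay between -0.20 and 0.09, so that libraries of one group were further apart than the groups. In the members under 50% GC the largest median deviation of a library was 0.16 and the median log2 fold change was 0.14.

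**Figure D4:**
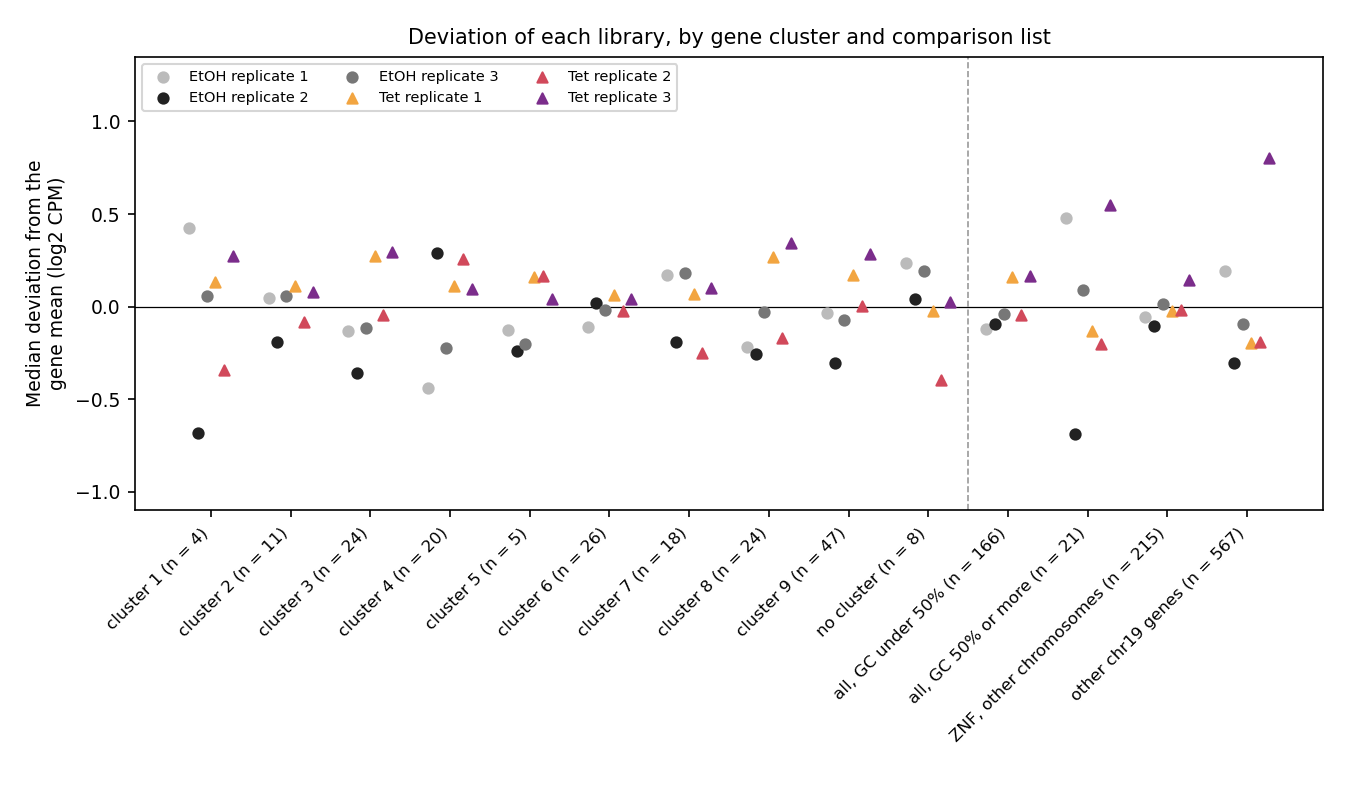
Median deviation of each library from the gene mean (vertical axis, log2 CPM) over the tested members of clusters 1 to 9, members in no cluster, members split by transcript GC, and the comparison lists (horizontal axis, with the number of genes), for 3 EtOH libraries (circles) and 3 Tet libraries (triangles). EtOH replicate 2 lies at -0.68 in cluster 1 and -0.69 in the members with at least 50% GC but at 0.29 in cluster 4, and Tet replicate 3 stands at 0.80 in the other chromosome 19 genes.

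Among members with at least 5 CPM the largest spreads were those of *ZNF419* (0.690), *ZNF221* (0.688), *ZNF880* (0.580) and *ZNF714* (0.543). *ZNF419* had 7.059, 2.344 and 7.471 CPM with EtOH and 8.401, 6.036 and 8.884 CPM with Tet. *ZNF221* had 11.49, 5.122 and 11.11 CPM with EtOH and 10.03, 5.303 and 14.32 CPM with Tet. In both the second replicate of each group was the lowest. *ZNF714* showed the opposite, with 120.7, 290.1 and 135.0 CPM with EtOH and 147.0, 219.8 and 144.9 CPM with Tet. Over all tested members, 69 differed by at least 2-fold between their highest and lowest library.

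**Figure D5:**
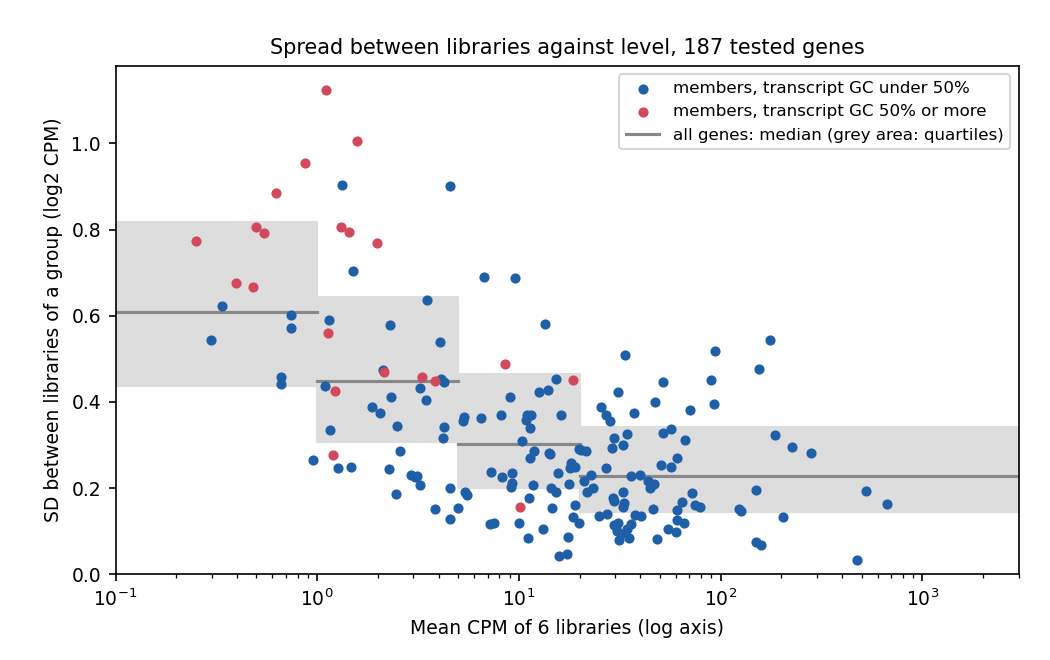
SD between libraries of a group (vertical axis, log2 CPM) against mean CPM (horizontal log axis) for the 187 tested members, with members under 50% transcript GC in blue and the 21 with 50% or more in red; grey lines and areas give the median and quartiles of all tested genes in bands of under 1, 1 to 5, 5 to 20 and over 20 CPM. Most members over 20 CPM lie near or under the all-gene median of 0.227, and the red points lie high.

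The most abundant members of the other clusters were as follows. *ZNF555* led cluster 1 with 8.09 TPM, *ZNF791* cluster 3 with 51.5 TPM, *ZNF302* cluster 5 with 42.9 TPM, *ZNF227* cluster 7 with 29.6 TPM, *ZNF480* cluster 8 with 87.6 TPM and *ZNF460* cluster 9 with 41.7 TPM. Their log2 fold changes were 0.16, 0.17, 0.18, -0.16, 0.28 and 0.30, with overlapping groups in each, and *ZNF480* passed the test without EtOH replicate 2 as given above. At the ends of the array, *ZNF554* had 0.944 TPM and *ZNF446* 0.142 TPM, with log2 fold changes of -0.0042 and -0.39 and overlapping groups.

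Features of the encoded proteins were read from the translated canonical transcripts of GENCODE 44. A strict KRAB A box pattern was found in 180 members and not in 69, which include known KRAB proteins such as *ZNF224*. The members with the pattern had a median log2 fold change of 0.13 and a median level of 7.532 TPM among 139 tested, and those without it 0.09 and 5.525 TPM among 48 tested. By number of finger matches, the median log2 fold change was 0.08 for at most 10, 0.21 for 11 to 14 and 0.07 for at least 15. Members with under 15 CG dinucleotides in the promoter were tested in 37 of 55 cases and had 21.2 TPM when tested. Those with 15 or more were tested in 132 of 163 cases and had 6.31 TPM.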

How the data were processed

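Total RNA was sequenced after enzymatic removal of ribosomal RNA, with stranded paired-end libraries. The authors deposited, for each library, expected counts per gene that were not scaled for depth or length. Per the file headers, featureCounts 1.6.4 counted read pairs over exons without regard to strand and divided a pair that overlapped several genes between them. The processing notes name STAR 2.7.1a, featureCounts 1.5.1 and GRCh38. Between 12.3% and 14.73% of genes had values that were not whole, and counts were rounded. Symbols, biotypes, GC content and proteins came from GENCODE 44, in which all 249 members were found, 181 in the same version with the same coordinates. Promoters came from RefSeq (GRCh38.p14).

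Counts were TMM-normalised, filtered with filterByExpr and fitted with edgeR 4.0.16 (quasi-likelihood, group as the sole term) in R 4.3.3, with adjustment over all genes tested. The script was tested on simulated data. With a simulated log2 fold change of 1 it called 0 of 191 changed genes, and with 2 it recovered 72.2% of 194. TPM was computed from counts and exon lengths. Spread used log2 CPM with a prior count of 2. The study's own tool, DESeq2 (1.42.0), and limma 3.58.1 (voom) were alternatives, beside other scalings and filters, a replicate block, a GC correction within 30 bins and leaving out each library. Replicates differed by 11.44 to 147.3 times the chi-square expected from counting, and no pair was merged as a repeat of one library.

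Members and lists were chosen with earlier results of these data known. Named members were the 6 with the lowest p in each direction (at least 1 CPM in a group), the 5 highest in TPM, the 4 largest and 2 smallest spreads (at least 5 CPM), the first and last, the highest of each cluster, and members with known roles. Protein patterns were a C2H2 match (spacers of 2 to 4, 12 and 3 to 5 residues) and a KRAB A box pattern in the first 200 residues. With 3 libraries a group and 27933378 to 40498065 counts, the precision of single genes was set by the spread between libraries.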

Additional observations from a re-analysis of the deposited data

How the results depend on the processing

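The absence of members lower at an adjusted p under 0.05 held under every alternative. The number of members called higher was 0 in edgeR and became 2 without a filter on low counts, 4 with DESeq2 and 8 with a replicate block, and 0 to 10 when 1 library was left out. With the replicate block 421 of all genes were called higher and 254 lower, against 33 and 20 without it. The numbers were not taken as pairs. Deviations from the group means correlated at 0.0603, 0.5105 and 0.2194 between libraries of the same number. EtOH replicate 2 and EtOH replicate 3 correlated best with the Tet library of their own number, but EtOH replicate 1 with Tet replicate 3 (0.3794). These values do not settle whether the numbers mark pairs. All genes called numbered 27 higher and 13 lower with RLE factors, 185 and 117 without a filter, 290 and 209 with DESeq2, 73 and 44 after GC correction, and 0 to 361 and 0 to 331 with 1 library left out. The cause was not tested. Members higher at an unadjusted p under 0.05 numbered 42 with the replicate block and 12 to 47 with 1 library left out. Among the 113 tested members with under 5% shared exon bases they numbered 16, against 5.83% of all tested genes. Lower ones numbered 1 (*ZNF580*) after GC correction and 0 to 4 with 1 library left out. The GC correction, like the minimum mean of 1 CPM, was an alternative chosen after seeing the data. For the block and the GC correction the share over all genes at that p was not counted. The 42 and the 1 were therefore not read as results about the members. Members with Tet above EtOH throughout numbered 23 among those with under 5% shared exon bases and 37 to 70 with 1 library left out, where fewer libraries must separate, and members with Tet below throughout 7 to 20. The median log2 fold change of the members, 0.127, ran from 0.063 to 0.211 over the alternatives. Each move was smaller than 0.0977, the SD between libraries of a group of the members' median deviation, which was not a test. The members' median spread, 0.276, was 0.181 without EtOH replicate 2 and 0.318 without a filter on low counts.

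Over 35 named and tested members, 560 comparisons with alternatives left 520 on the same side with the same sign, 16 past the threshold and 24 with the opposite sign. The sign of *ZNF554* was opposite with upper quartile scaling (0.011), the replicate block (0.14), GC correction (0.097) and limma-voom (0.16), and that of *ZNF714* with limma-voom (0.0030). With 1 library left out the log2 fold change ran from -0.087 to 0.19 for *ZNF146*, -0.27 to 0.40 for *ZNF221*, -0.34 to 0.42 for *ZNF714*, -0.39 to 0.24 for *ZNF554*, -0.032 to 0.35 for *ZNF555*, -0.039 to 0.067 for *ZNF224*, -0.068 to 0.34 for *ZNF808* and -0.10 to 0.38 for *ZNF274*. Genes under 0.1 CPM and GC-rich members were limited by depth and by the spread between libraries. A gap of 0.5 Mb or 2 Mb gave 10 or 6 clusters in place of 9.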
